A study of Mus musculus with 4 samples.

Results

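In mouse embryonic stem (ES) cells, 110 windows of 1 kb carried little CpG methylation in wild-type (WT) cells and more of it in Naa10-knockout (Naa10-KO) cells. They were found among 24583 windows of chromosomes 1 to 19 whose WT mean lay below 10%, themselves 29.0% of the 84784 windows measured. A window was measured when it held 5 or more cytosines of CpG sites with at least 10 calls in each of the 4 libraries. A call is 1 read of 1 cytosine as methylated or unmethylated, and the level of a window is its methylated calls as a percent of all its calls. A window became a member when each KO library was above each WT library and the KO mean exceeded the WT mean by 1 percentage point or more. The windows were thus selected on the levels of the same 4 libraries, so those levels are given as a description and carry no test.

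Reduced representation bisulfite sequencing reads CpG methylation in the part of the genome that the enzyme MspI cuts into short fragments. It was carried out on 2 libraries of Naa10-KO ES cells and 2 libraries of WT ES cells, and the comparison asks what CpG methylation looks like without Naa10. Naa10, a gene of the X chromosome, encodes the enzyme that, in the NatA complex, acetylates the first residue of many proteins. Cells of both genotypes had been cultured with LIF and with inhibitors of Mek and Gsk3 in N2B27, first on irradiated feeders and then over 5 passages without them. The labels do not say whether the 2 libraries of each genotype stand for different cultures, clones or animals, so a p-value speaks only of how these libraries vary, possibly for technical reasons. Bisulfite data hold no RNA, so neither the knockout nor ES cell markers could be checked by expression.

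Most CpG-dense stretches of the mammalian genome, many of them promoters, stay free of methylation, while the sparse CpGs around them are usually methylated. ES cells grown with inhibitors of Mek and Gsk3 are known for low methylation over the genome as a whole. Here the median level of the 84784 measured windows was 69.4% in each WT library, against 16.1% and 9.92% in KO replicates 1 and 2. CpG-dense stretches at genes of development, such as the Hox and Pax genes, are held silent in ES cells mainly by Polycomb proteins and usually without methylation.

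Promoters from RefSeq were placed on the measured cytosines by the spacing of their CpGs, which put 7294 promoters of 6540 genes at 1 place each. The promoters of 7 genes overlapped a member window. Those of Sfmbt2, Ece1 and Pax6 are printed here because their windows had the largest differences among the 7. The sequence also shows how few of a promoter's CpGs were measured. Each runs 5′ to 3′ on the + strand, from 250 bases before the transcription start to 50 after it, with the sequence of the RefSeq table (GRCm38.p6) and the place in mm9. Capitals mark the CpGs with 10 or more calls in all 4 libraries. The last CpG in capitals at Ece1 lies past the end of its member window.
Sfmbt2, chr2:10291828-10292127: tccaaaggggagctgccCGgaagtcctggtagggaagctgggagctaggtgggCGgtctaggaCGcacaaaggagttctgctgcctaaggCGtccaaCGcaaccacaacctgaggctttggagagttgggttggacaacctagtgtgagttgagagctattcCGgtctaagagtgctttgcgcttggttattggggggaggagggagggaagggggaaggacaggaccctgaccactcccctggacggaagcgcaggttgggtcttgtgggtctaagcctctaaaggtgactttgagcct
Ece1, chr4:137417902-137418201: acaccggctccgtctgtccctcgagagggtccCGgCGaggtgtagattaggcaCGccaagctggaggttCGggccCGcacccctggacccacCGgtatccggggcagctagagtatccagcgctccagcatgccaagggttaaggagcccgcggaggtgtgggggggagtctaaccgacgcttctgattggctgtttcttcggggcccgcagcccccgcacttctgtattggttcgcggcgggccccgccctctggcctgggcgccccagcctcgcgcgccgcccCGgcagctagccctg
Pax6, chr2:105508803-105509102: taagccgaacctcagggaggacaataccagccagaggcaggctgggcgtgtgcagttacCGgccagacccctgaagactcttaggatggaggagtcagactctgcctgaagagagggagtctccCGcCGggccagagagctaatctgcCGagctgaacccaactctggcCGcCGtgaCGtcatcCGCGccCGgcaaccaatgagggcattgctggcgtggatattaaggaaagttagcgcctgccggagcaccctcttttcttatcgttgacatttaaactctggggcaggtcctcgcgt
Of the 9 CpGs of the Sfmbt2 promoter 6 were read deeply enough, against 7 of 28 at Ece1 and 10 of 18 at Pax6. The site cut by MspI, CCGG, occurred 2 times in the Sfmbt2 promoter, 5 times in the Ece1 promoter and 4 times in the Pax6 promoter. CCGG reads the same on both strands and occurred in 52.8% of all promoters of the table and in 99.8% of those placed. A match of these letters is a description only.

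The Sfmbt2 promoter stood out among the 7. Sfmbt2 encodes a Polycomb-family protein and is imprinted in extraembryonic tissues of the mouse. All 10 cytosines of its window, chr2:10291001-10292000, lay inside the printed promoter, within the CpGs in capitals. The window's level reached 19.8% in KO replicate 1 and 8.91% in KO replicate 2, against 6.23% in WT replicate 1 and 5.65% in WT replicate 2. Each KO library was above each WT library, as in every member, and KO replicate 1 lay far above all the others. The mean was 14.4% ± 7.73 in KO and 5.94% ± 0.405 in WT (SD, n = 2 each), a difference of 8.43 points. The spread between the KO libraries was nearly as large as this difference, which was 2.97 points without KO replicate 1 and 13.9 points without KO replicate 2. At all 10 cytosines the KO mean exceeded the WT mean.

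Pax6, a homeobox gene of the eye, brain and pancreas, had a second member window downstream of its start. At the promoter, in the window chr2:105508001-105509000, the 16 cytosines gave 5.26% and 1.56% in KO replicates 1 and 2, against 1.47% and 1.40% in WT replicates 1 and 2. KO replicate 2 thus lay only just above the WT libraries. In the window chr2:105520001-105521000, 10948 bases past the start, the levels were 12.3% and 6.22% in KO, against 4.64% and 3.44% in WT. The difference of 5.24 points there was 2.18 points without KO replicate 1 and 8.30 points without KO replicate 2. Of the 6 windows with a low WT level between and including these members, 2 belonged to the opposite set, with each WT library above each KO library.

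At the other 5 genes the promoter's level was at most 3.32% in every library. The printed Ece1 promoter, 1 of 2 placed for this gene of an endothelin-converting enzyme, held 9 methylated of 390 calls in KO replicate 1 and 11 of 331 in KO replicate 2, against 2 of 473 in WT replicate 1 and 3 of 351 in WT replicate 2. Those counts are 2.31% and 3.32% in KO, against 0.423% and 0.855% in WT. The promoters of Peak1, Klhl17, Noc2l and Gm26839 held at most 6 methylated calls in any library, and in 3 of them the libraries overlapped. These promoters reach past the member windows, and their levels include cytosines outside them. The Gm26839 promoter was measured at 38 cytosines and its window at 6, and the measured CpGs of the Klhl17 promoter lay outside the window. In the windows themselves neither WT library had a methylated call. The Klhl17 promoter had 0% and 1.12% in KO, against 0% and 1.96% in WT. The Noc2l promoter had 0.110% and 0.464% in KO, against 0.108% and 0.265% in WT. The Gm26839 promoter had 0.623% and 0.289% in KO, against 0.175% and 0.610% in WT. The windows of these 4 promoters differed by 1.09 to 1.27 points.

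**Figure D1:**
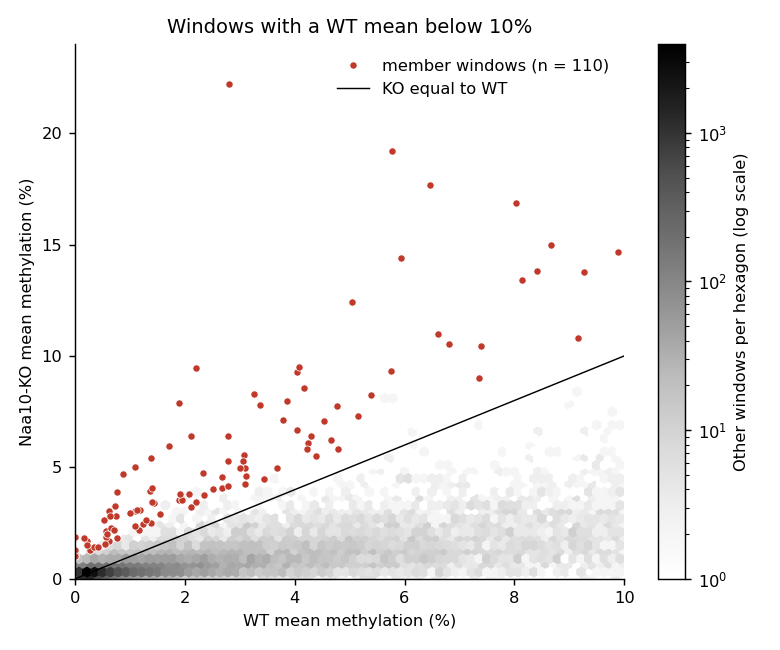
Mean methylation in percent of the 2 KO libraries (vertical axis) against that of the 2 WT libraries (horizontal axis) for windows with a WT mean below 10%. Red points are the 110 members, grey hexagons count the other windows on a log scale, and the line marks equal levels. Members lie above the line by construction, most of them below a KO mean of 10%, while most other windows with a WT mean above 2% lie below it.

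Few members reached a high level in KO. Over the 110 windows the median level reached 5.05% in KO replicate 1 and 3.63% in KO replicate 2, against 2.22% in WT replicate 1 and 2.16% in WT replicate 2. Summed over all calls of the members, the level was 5.79% and 4.06% in KO, against 2.55% and 2.55% in WT. Over all 24583 windows with a low WT level the same sums gave 0.566% and 0.420% in KO, against 1.22% and 1.22% in WT. The members' direction was set by the rule, and it was opposite to that of the windows they were drawn from. The KO mean was below 5% in 65 members, between 5 and 10% in 30 and at least 10% in 15, with a highest value of 22.2%. The median difference was 1.92 points, and only 14 members differed by 5 points or more. KO replicate 1 lay above KO replicate 2 in 77 members, which is 70%, against 64.0% of the opposite set and 51.1% of the other windows with a low WT level.

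The same rule was applied with the libraries exchanged, to show how often it was met by other pairs. The KO pair was above the WT pair, by 1 point or more, in 110 windows, which is 0.447% of the 24583. In the opposite set the WT pair was above the KO pair in 6342 windows, or 25.8%. Mixed pairs, each of 1 KO and 1 WT library above the other 2, have no genotype in common. KO replicate 1 (KO 1) with WT replicate 1 (WT 1) lay above in 366 windows (1.49%) and KO 1 with WT 2 in 327 (1.33%). KO 2 with WT 1 lay above in 137 windows (0.557%) and KO 2 with WT 2 in 133 (0.541%). The members were thus fewer than the windows of each mixed arrangement.

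**Figure D2:**
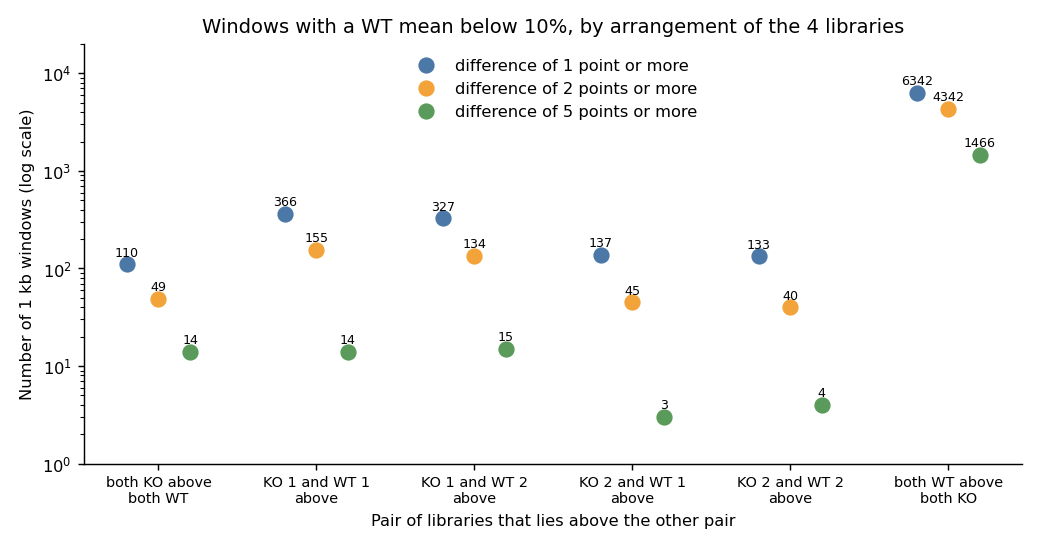
Number of windows with a WT mean below 10% (vertical axis, log scale) for each of the 6 ways in which 2 libraries can lie above the other 2 (horizontal axis), at a minimum difference of 1, 2 or 5 points (colours). The KO pair lay above in 110, 49 and 14 windows, and the WT pair in 6342, 4342 and 1466.

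The counts at larger differences were as follows. At 5 points or more there were 14 members, against 14 and 15 windows in the mixed arrangements with KO 1 above and 3 and 4 in those with KO 2 above. The limit on the WT mean holds down every arrangement with a WT library above, but not the members. With the limit set on the mean of the lower pair instead, the mixed arrangements held 29 and 22 windows with KO 1 above and 5 and 7 with KO 2 above at 5 points or more, beside the same 14 members. At 10 points or more there were then 3 members, against 4, 2, 1 and 1 windows in the mixed arrangements. Under the rule as stated, the share of a set with 5 points or more was 12.7% of the members. It was 2.19 to 4.59% of the mixed arrangements and 23.1% of the opposite set, shares that the limit on the WT mean holds down. With the limit on the lower pair, 14 of 110 members stood beside 29 of 394, 22 of 343, 5 of 140 and 7 of 138 mixed windows. In the opposite set it was then 13981 of 18919. Exact 95% binomial intervals of both KO libraries lay wholly above those of both WT libraries in 2 members, which is 0.00814% of the 24583 windows, against 2 windows for KO 1 with WT 1, 1 for KO 1 with WT 2 and 0 for either pair with KO 2. The corresponding count in the opposite direction was 2482 windows without a minimum difference, or 10.1%. These intervals cover counting error only, and they are too narrow, since neighbouring cytosines are read on the same fragments.

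One of those 2 windows was chr18:38759001-38760000, which had the largest difference of all members. Its 7 cytosines held 52 methylated of 181 calls in KO replicate 1 and 28 of 179 in KO replicate 2, against 6 of 154 in WT replicate 1 and 3 of 175 in WT replicate 2. Those are 28.7% and 15.6% in KO, against 3.90% and 1.71% in WT, a difference of 19.4 points that was 12.8 points without KO replicate 1. The levels were uneven inside the window. At the cytosine in position 38759976 the level was 73.1% and 38.5% in KO, against 9.09% and 8% in WT, from 22 to 26 calls a library. At position 38759864 it was 3.85% and 0% in KO, against 0% and 0% in WT. All 7 cytosines were covered by 22 to 26 calls, so about that many reads stood behind the window in each library.

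Around it lay the largest group of members, 5 of the 17 members that had another within 20 kb. The span chr18:38743001-38763000 held 6 windows with a low WT level, 5 of them members, and the KO mean lay above the WT mean in all 6. The differences in the 5 members were between 1.41 and 19.4 points. Chromosome 18 held 9 members among its 716 windows with a low WT level, or 1.26%, the highest share of any chromosome, and chromosome 12 the lowest with 1 of 978. Members occurred on all 19 autosomes. Chromosomes 8 and 14 held 11 members together.

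The other window with separate intervals lay among the Hoxb genes, which set position along the body axis. The window chr11:96213001-96214000 stood 708 bases from the start of Hoxb3os, a transcript from the strand opposite Hoxb3. Its level reached 11.7% in KO replicate 1 and 7.19% in KO replicate 2, against 2.01% in WT replicate 1 and 2.41% in WT replicate 2. The 2 KO libraries lay above the WT libraries, as the rule demands of every member, and the difference was 7.26 points. The 21 cytosines fell into 2 stretches. Up to position 96213398 most levels were below 10% in every library. In the second stretch KO replicate 1 was highest at position 96213469, with 37.5% and 21.9% in KO, against 6.67% and 2.86% in WT. On the other strand of that CpG, at 96213470, the level was 17.1% and 4.55% in KO, against 0% and 0% in WT. At 96213483 the libraries overlapped, with 8.57% and 0% in KO, against 2.08% and 4.55% in WT. Over the whole window the KO mean was higher at 85.7% of the cytosines and lower at 9.52%.

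Further members lay in or near the Hox clusters, and the share of members among all windows of these clusters is not given here. In the same Hoxb region, chr11:96172001-96173000 had 18.1% and 11.9% in KO, against 7.71% and 9.64% in WT, and its difference of 6.31 points was 3.25 points without KO replicate 1. The window chr6:52180001-52181000, between the placed promoters of Hoxa6 and Hoxa11os, had 7.27% and 5.55% in KO, against 3.77% and 4.80% in WT, and chr2:74526001-74527000, beside Hoxd10, had 4.65% and 3.38% in KO, against 2.76% and 2.27% in WT. The window chr15:102828001-102829000, in an interval that holds Hoxc4 to Hoxc13 in the gene table, had 8.91% and 6.60% in KO, against 4.68% and 4.87% in WT. The interval of chr11:96061001-96062000 holds Hoxb13, and this window had 11.9% and 9.68% in KO, against 9.07% and 9.26% in WT. The gap between the lower KO library and the higher WT library was 2.28 points at chr11:96172001-96173000, 0.743 in the window on chromosome 6 and 0.616 in that on chromosome 2. It was 1.73 points in the window on chromosome 15 and 0.418 at chr11:96061001-96062000.

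**Figure D3:**
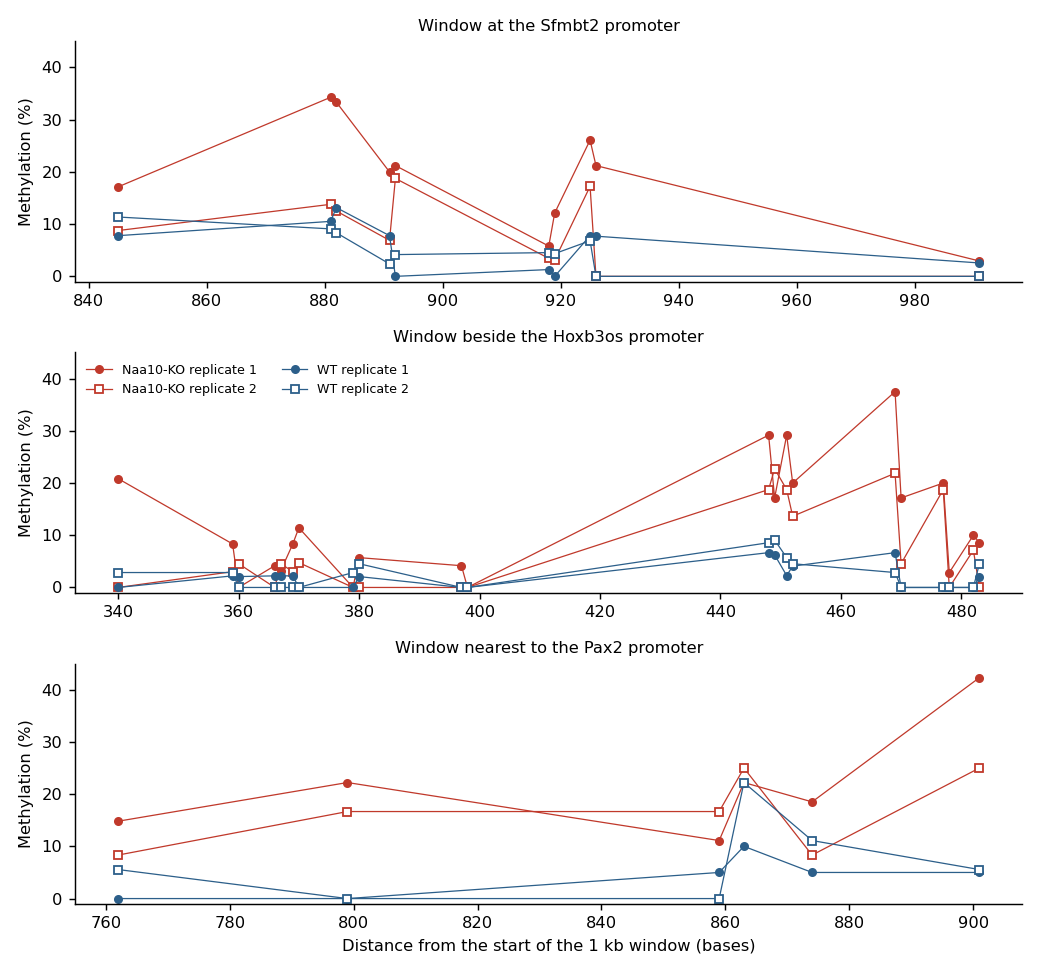
CpG methylation in percent of single cytosines (vertical axis) by distance from the start of the window in bases (horizontal axis) in 3 member windows, with KO in red and WT in blue, filled circles for replicate 1 and open squares for replicate 2. Lines only join neighbouring cytosines of a library. The KO levels reach 37.5% at 1 cytosine near Hoxb3os and stay near the WT levels at most cytosines of the left stretch, while at Sfmbt2 KO replicate 1 leads at most cytosines.

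The members ranked next by difference had placed promoters within 20 kb. The window chr19:44814001-44815000 was 15242 bases from the start of Pax2, a gene of kidney and eye development. It had 21.7% and 16.7% in KO, against 4.13% and 7.41% in WT, but its difference of 13.4 points was 7.34 points when cytosines with 5 to 9 calls were let in. The window chr4:151649001-151650000 was 530 bases from the start of Gpr153, an orphan receptor. It had 20.0% and 15.3% in KO, against 6.94% and 5.98% in WT, a difference of 11.2 points. In both windows the exact 95% intervals of KO replicate 2 overlapped those of a WT library.

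In 3 further windows the KO libraries lay far apart, KO replicate 1 above KO replicate 2. The window chr4:148145001-148146000, whose nearest placed promoter was that of the zinc finger gene Casz1, 32501 bases away, had 22.3% and 11.5% in KO, against 9.27% and 6.79% in WT, and its difference of 8.85 points was 3.45 points without KO replicate 1 and 14.2 points without KO replicate 2. The window chr11:18775001-18776000, 142972 bases from Meis1, a homeobox cofactor of Hox proteins, had 14.5% and 4.56% in KO, against 4.34% and 3.83% in WT. Without KO replicate 1 its difference of 5.43 points was 0.47 points, and without KO replicate 2 it was 10.4 points. The window chr17:88226001-88227000, 28667 bases from the start of the potassium channel gene Kcnk12, had 11.5% and 5.6% in KO, against 5.56% and 2.78% in WT, and its difference of 4.39 points was 1.43 points without KO replicate 1 and 7.34 points without KO replicate 2.

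The nearest placed promoter of 3 further members was that of a homeobox gene. Near Dbx1, a gene of the spinal cord and hypothalamus, the window chr7:56894001-56895000 had 7.77% and 4.17% in KO, against 1.62% and 1.79% in WT. Near Otp, a gene of the hypothalamus, chr13:95642001-95643000 had 5.98% and 9.57% in KO, against 3.96% and 2.76% in WT, and its difference of 4.42 points was 2.84 points without the leading cytosine and 2.62 points without KO replicate 2. Between Dlx1 and Dlx2, genes of forebrain interneurons, chr2:71377001-71378000 had 10.97% and 7.69% in KO, against 6.77% and 4.72% in WT. KO replicate 2 was the higher KO library at Otp, and KO replicate 1 at the other 2.

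A further 4 of the 20 largest members lay on chromosomes 10, 4 and 15. On chromosome 10 the windows starting at 126950001 and 126962001 lay on either side of Shmt2, a mitochondrial enzyme of serine metabolism, 8500 and 2501 bases from its start. The first of these had 6.36% and 6.41% in KO, against 2.40% and 1.83% in WT, and its difference of 4.27 points was 2.40 points when cytosines with 5 to 9 calls were let in. The second had 15.7% and 11.1% in KO, against 8.24% and 8.04% in WT, and its difference of 5.25 points was 2.95 points without KO replicate 1. Neither window's KO libraries overlapped its WT libraries, which the rule required of every member. The window chr4:125176001-125177000, near the glutamate receptor gene Grik3, had 9.95% and 6.67% in KO, against 2.27% and 4.24% in WT. The window chr15:7764001-7765000, between the placed promoters of Egflam and Wdr70, had 7.89% and 7.84% in KO, against 2.47% and 1.33% in WT, from 102 to 162 calls a library. Its difference of 5.97 points was 3.35 points when cytosines with 5 to 9 calls were let in.

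In the remaining 5 of the 20 largest members no promoter was placed within 20 kb for 4, and promoters of chromosome 18, which holds the other, were not used here. That window, chr18:55151001-55152000, had 13.7% and 11.2% in KO, against 4.17% and 5.91% in WT, a difference of 7.39 points. The window chr5:75473001-75474000, between the placed promoters of Chic2 and Tmem165, an interval that holds the homeobox gene Gsx2 and the receptor genes Pdgfra, Kit and Kdr in the gene table, had 15.9% and 11.7% in KO, against 8.48% and 8.33% in WT. Its difference of 5.41 points was 1.87 points when cytosines with 5 to 9 calls were let in and 3.29 points without KO replicate 1. In both windows the KO levels did not overlap the WT levels, again as the rule required.

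In the other 3 of these 5 the difference also changed in size when 1 cytosine or 1 library was left out. The window chr14:55052001-55053000 had 16.1% and 13.3% in KO, against 9.95% and 9.83% in WT, and its difference of 4.78 points was 2.29 points without its leading cytosine. The window chr7:51857001-51858000 had 11.6% and 16.0% in KO, against 9.14% and 9.39% in WT, and its difference of 4.51 points was 2.15 points without the leading cytosine and 2.29 points without KO replicate 2. At chr3:99062001-99063000 the levels were 9.51% and 12.4% in KO, against 4.19% and 9.01% in WT, and the difference of 4.36 points was 1.95 points without WT replicate 1, 6.77 points without WT replicate 2 and 2.91 points without KO replicate 2.

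The 5 largest windows of the opposite set differed by -9.63 to -9.95 points. They had 0 methylated calls in either KO library, from 60 to 209 calls a library. Their WT libraries were at 2.15 to 17.7%. One of them overlapped the promoter of Gja3, a connexin of the lens. The limit on the WT mean keeps every difference of the opposite set under 10 points, so these values give no scale for the members. With the limit on the mean of the lower pair, 11290 windows of the opposite set differed by 10 points or more, beside 3 members.

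**Figure D4:**
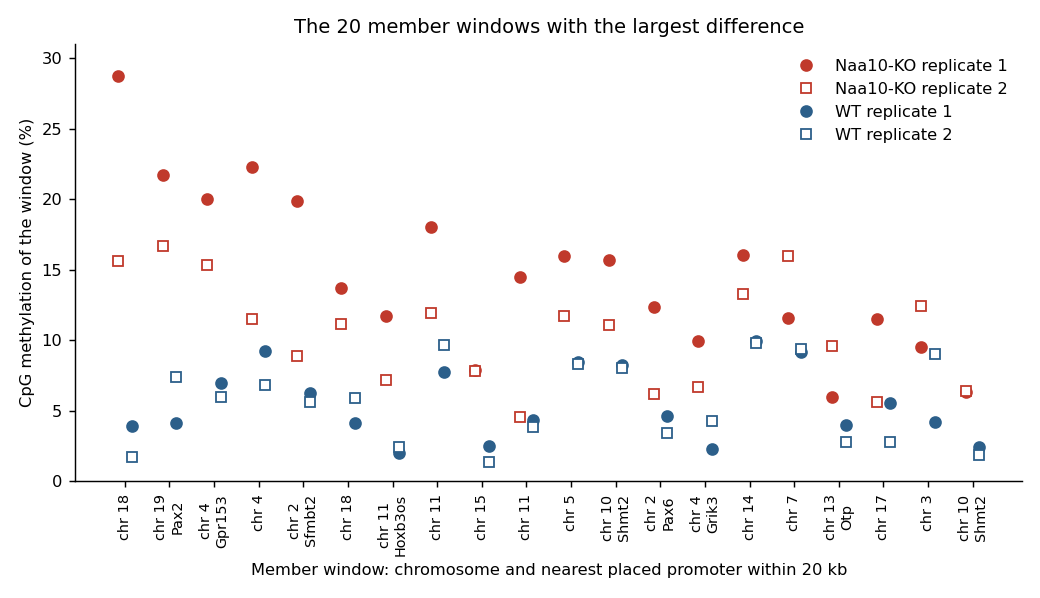
CpG methylation in percent (vertical axis) of the 20 members with the largest difference, neighbouring members counted as 1, in order of the difference (horizontal axis, with the chromosome and the nearest placed promoter within 20 kb). Red symbols are the KO libraries and blue the WT libraries, circles for replicate 1 and squares for replicate 2. In many windows KO replicate 1 stands well above KO replicate 2, and KO replicate 2 is close to the WT libraries in several.

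At the low end, members rested on a few methylated calls. No methylated call was made in either WT library in 11 members, whose KO libraries held 2 to 6 methylated calls a window, 39 of 3385 in all or 1.15%, against 0 of 3549 in WT. A count of 0 allows a WT level of up to 0.523 to 1.79% in these windows, taking 3 calls of the total as the limit. In 13 members the KO libraries together held 5 or fewer methylated calls. The gap between the lower KO library and the higher WT library was under 0.5 points in 36 members and at least 1 point in 41.

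The values around the thresholds show how finely the set was drawn. The member with the smallest difference, chr11:69179001-69180000, had 1.01 points, and the closest windows outside had 0.97 to 0.98 points. The highest WT mean inside was 9.89%, at chr14:55052001-55053000, and only 3 windows met every other condition at a WT mean of 10% or more, the nearest with 10.7%. Lowering the number of cytosines to 4 would add 22 windows, while 7 members held exactly 5. Without the demand that both KO libraries lie above both WT libraries, 73 more windows differ by 1 point or more.

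Inside the members, methylated calls in KO were not limited to a single cytosine. In the median member 77.8% of the cytosines had a methylated call in KO and 58.3% had one in WT. The KO mean was higher at a median of 63.6% of the cytosines of a member and lower at 16.7%, against 9.68% and 66.7% in the opposite set. The cytosine with the most methylated KO calls held a median of 25% of them, and over 50% of them in 7 members. In 72 members at least 3 CpGs were read on both strands, and in 64 of these the KO mean was above the WT mean on each strand, with 0 members lower on both. The sum over both strands had to be higher in KO for a window to be a member, so these counts are largely set by the choice of members and add no replicate.

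Cytosines with 5 to 9 calls in the shallowest library had no part in choosing the windows. There were 553 of them in members, and 50 members held 3 or more. Over these 50 their summed level came to 3.42% in KO replicate 1 and 2.94% in KO replicate 2, against 2.25% in WT replicate 1 and 2.22% in WT replicate 2. The KO libraries were again above the WT libraries, by less than at the cytosines that chose the windows. The KO mean was higher than the WT mean in 29 of the 50 members, lower in 17 and equal in 4, and the KO pair lay above the WT pair in 12 and below it in 5. In the other windows with a low WT level the KO mean was higher in 2940 of 10388 and lower in 5177. In the mixed arrangements it was higher in 10 to 47 windows and lower in 32 to 107 of an arrangement. These cytosines share fragments with those that chose the windows and are not independent of them.

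The windows directly beside members were looked at in the same way. Of 103 measured neighbours 81 had a WT mean below 10% and 1 a WT mean of 50% or more, or 0.971%. The latter share was 13.7% among the neighbours of the opposite set and 4.17 to 10.6% among those of the mixed arrangements. Among the 81 low neighbours the KO mean was above the WT mean in 32, or 39.5%, against 21.7% of all windows with a low WT level. The WT pair lay above the KO pair in 24.7% of them, against 50.3% of all such windows. The KO pair lay above the WT pair in 9.88% of the low neighbours of members, against 5.95% of all such windows. Among low neighbours of the mixed arrangements that share was 6.25 to 9.95%. Most neighbours of members thus did not share the members' direction.

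Members were windows with few measured cytosines. They held a median of 12 measured cytosines, against 19 in the opposite set, 8 to 14 in the mixed arrangements and 34 in all windows with a low WT level. Only 8 members, or 7.27%, held 40 or more, against 43.9% of all such windows. A window with fewer calls has a wider counting error, and the part of cytosine number in the choice of members was not tested. A placed promoter overlapped 6 of the 101 members outside chromosome 18, or 5.94%, against 28.8% of all windows with a low WT level and 5.88 to 10.3% of the mixed arrangements.

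A placed promoter lay within 20 kb of 43 of these 101 members. For 9 of the 43, or 20.9%, the nearest one belonged to the developmental families, which are the Hox, Pax, Sox, Fox, Gata, Lhx, Nkx, Tbx, Irx, Wnt and Dlx genes and the sine oculis homologues by the start of their symbol, antisense transcripts included. These were Pax2, Pax6 for a pair of windows, Pax7, Hoxb3os, Hoxa11os, Hoxd10, Dlx2 and Six3os1. The share was 2.61% over all windows with a low WT level and 5.33% in the opposite set. It was 14.8% and 15.0% in the mixed arrangements with KO 1 above, and 6% and 0% in those with KO 2 above. A high share of developmental neighbours was therefore also found where 1 KO and 1 WT library lay above the others.

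**Figure D5:**
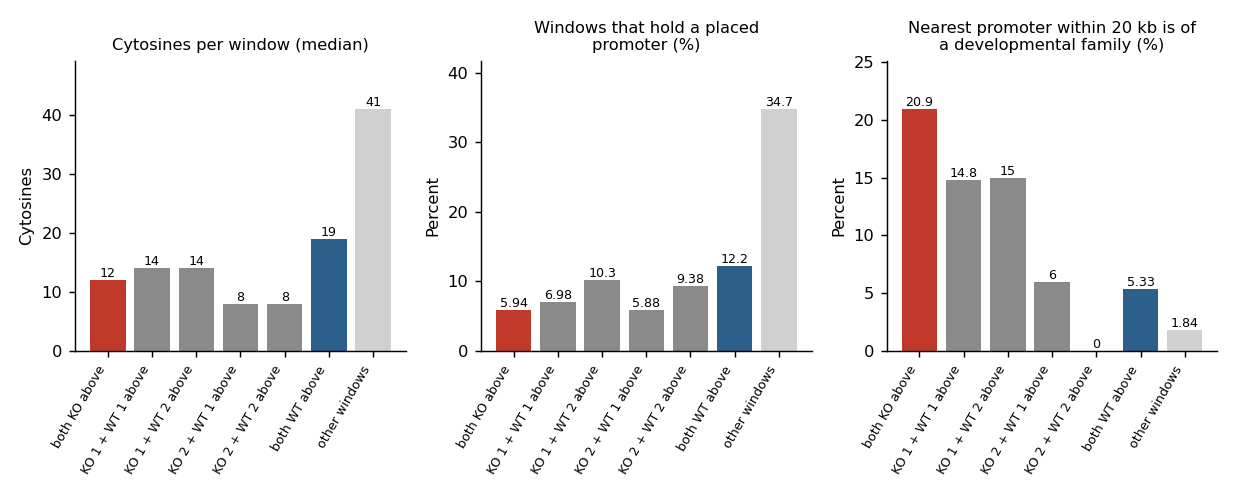
Median number of measured cytosines per window, share of windows that overlap a placed promoter in percent, and share in percent of the windows with a placed promoter within 20 kb whose nearest one belongs to the developmental families. Bars run from the members (red) over the 4 mixed arrangements (grey) to the opposite set (blue) and the other windows with a WT mean below 10% (light grey). Members hold a median of 12 cytosines, and 20.9% of those near a promoter lie nearest to a developmental one, against 14.8% and 15.0% in the mixed arrangements with KO 1 above.

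Promoters of the developmental families were counted in the same windows. Of the 70 such genes with a placed promoter in a window with a low WT level, 1 was in a member, Pax6, and 18 were in the opposite set, beside 7 and 760 of the 6310 genes with a placed promoter in such windows. Over the 81 windows of these promoters the KO mean was higher in 13 and lower in 68, with a median difference of -0.25 points, beside -0.097 points over the 6877 windows of all placed promoters. Of the 37 ribosomal protein genes, 9 genes of the methylation machinery, 3 imprinted genes and 3 pluripotency genes with a placed promoter in such windows 0 were in a member, and with 7 of 6310 genes overall these lists are too short to read anything from that. The germline genes had 3 placed promoters, and 0 of them lay in a window with a WT mean below 10%. For the member chr9:20777001-20778000 the nearest placed promoter, 19934 bases away, was that of Dnmt1, the maintenance methyltransferase. It lay between the placed promoters of Dnmt1 and Zglp1, an interval that holds S1pr2, Mrpl4, Icam1, Icam4 and Icam5 in the gene table. The window had 4.92% and 7.26% in KO, against 4.02% and 4.47% in WT, a gap of 0.45 points between the lower KO and the higher WT library.

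In a fit across all 84784 windows, edgeR's quasi-likelihood test with Benjamini-Hochberg adjustment called 35 of the 110 members higher in KO. It called 152 of the 24583 windows with a low WT level higher, which is 0.618%, and 7076 lower, or 28.8%. Leaving out 1 library changed the 152 to 232 (KO 1 left out), 343 (KO 2), 79 (WT 1) or 56 (WT 2), and fitting only the windows with a low WT level gave 40. The rule used this same contrast, so nothing is read from the members' count. Of the 152 windows called higher, 116 differed by less than 1 point. Over all windows 152 were called higher (0.179%) and 66779 lower (78.8%), so every window called higher had a WT mean below 10%.

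Depth, which the rule used only through its minimum, was compared over the libraries. The members took 0.148% and 0.143% of the calls of the windows with a low WT level in KO replicates 1 and 2, against 0.154% and 0.152% in WT replicates 1 and 2. The ratio of KO to WT depth in members against the other windows with a low WT level was 0.953. The two-sided exact permutation test over the 4 libraries gave p = 0.333, the smallest that 2 against 2 libraries allow. Library totals were 68929594 and 70594987 calls in KO, against 79540412 and 68586396 in WT. Over windows with a low WT level the chi-square between the 2 KO libraries, divided by its degrees of freedom, was 2.42, from 13506 windows. Between the 2 WT libraries it was 1.43, from 18057 windows, where counting error alone gives about 1. The 2 values thus do not rest on the same windows. Mitochondrial DNA, read as methylated in 0.612% and 0.830% of calls in KO, against 2.04% and 1.38% in WT, was lower in KO.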

How the data were processed

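Each library's table, as deposited by the authors, lists CpG cytosines by position with a percent methylation and with counts of methylated and of unmethylated calls. The deposited counts are raw whole numbers, and levels were computed from them instead of the deposited percent. Per the labels' protocols, DNA was cut with MspI, bisulfite converted and selected by size. The submitters' processing notes name Bismark 0.10.1, Trim Galore and mm9 without saying which did what. How reads were filtered, trimmed or cleared of duplicates is not given in the sources used here, so counting intervals and limits cover counting error only.

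Cytosines of chromosomes 1 to 19 with 10 or more calls in all 4 libraries (1874113) were summed in windows of 1 kb that do not overlap, and windows with 5 or more were kept. Positions are 1-based in mm9. RefSeq promoters of 300 bases (GRCm38.p6) were placed where at least 8 of their CpGs matched the spacing of covered cytosines at 1 place on their chromosome. All 7294 kept the gene order of the table, and 6 were placed when they were searched on a wrong chromosome. Promoters of chromosome 18 were not used here. Gene neighbours come from the gene table of the same assembly, and exons and introns were not assigned. Distances run from the window's edge to the placed start.

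Windows were tested with edgeR 4.0.16 (run in R 4.3.3), which modelled both counts of a window with terms for the library, the methylation state and the interaction of state with genotype, and windows that could not be fitted stayed in the adjustment with a p of 1. Depth was tested by exact permutation (scipy 1.17.1). The text names the 20 members with the largest difference, those around each threshold, genes whose promoter overlaps a member and members of the gene lists; those ranked lower (near Dbx1, Dlx2, Dnmt1 and in the Hox clusters) were chosen after their values were seen. The members and lists were chosen with earlier results of these data known.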

Additional observations from a re-analysis of the deposited data

How the results depend on the processing

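The number of members, 110, depended on the thresholds: it was 68 in windows of 2 kb, 67 with at least 10 cytosines, 71 when the cytosine with the most methylated KO calls was left out, and 231, 49 and 14 at minimum differences of 0.5, 2 and 5 points. Without 1 library it was between 167 and 385, since fewer libraries have to be in order: 175 without KO replicate 1, 385 without KO replicate 2, 191 without WT replicate 1 and 167 without WT replicate 2, with 75, 95, 105 and 102 of the 110 kept. At a minimum of 20 calls 61 of the 110 were kept, and at 5 calls 92. The opposite set of 6342 held 3717 and 9549 windows at WT limits of 5% and 20%, 18919 when the limit was set on the lower pair, and 1466 at 5 points. The 4 mixed arrangements together, 963 windows, held 1501 in windows of 500 bp, 558 with at least 10 cytosines, and 2097, 374 and 36 at 0.5, 2 and 5 points; they cannot be formed without 1 library. The members' median difference lay between 1.46 and 2.04 points under the alternatives run. Members were chosen anew in each of them with differences of 1 point or more, so the median could not fall below that. The minimum difference and the leading cytosine were not varied for this value. All 21 windows among the 20 named runs kept their direction in 180 alternatives. In those without 1 library this was fixed in advance, since each KO library of a member lies above each WT library. The difference moved by more than 1.5 times in 10 windows without KO replicate 1 and 8 without KO replicate 2. It moved as much in 1 window without WT replicate 1, 1 without WT replicate 2, 5 without the leading cytosine and 4 at 5 calls. The count of 152 windows called higher by edgeR was 40 when only windows with a low WT level were fitted, 438 with limma, 230 with Fisher's exact test on pooled counts, and between 56 and 343 without 1 library (without WT replicate 2 and KO replicate 2), with 79 without WT replicate 1 and 232 without KO replicate 1. With the replicate number as a block it was 92; the libraries share only a number, and the differences between replicates 1 and 2 in KO and in WT had a correlation of 0.0025 over windows. The causes were not tested. With 2 libraries a group and a median of 326 to 412 calls a window, differences of 1 to 2 points rest on few methylated calls.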
